A study of Mus musculus with 6 samples.

Results

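The sterol synthesis genes described here are 8 genes of cholesterol production that the SREBP transcription factors drive: Hmgcs1, Idi1, Fdft1, Sqle, Lss, Cyp51, Dhcr7 and Insig1. They were taken by name from the 48709 genes of the count files, all 8 were found, and all 8 passed the filter on low counts that 15385 genes passed. RNA was measured in the neocortex of C57BL/6 mouse embryos at E15.5 (embryonic day), in 3 wild-type libraries (WT) and 3 libraries of the genotype Rest(+/deltaExon4), called Rest_het here. Rest encodes a repressor of neuronal genes, and the mutant embryos carry 1 allele of it without exon 4. The labels name separate mice but no litter, sex or batch, so the p-values measure the spread between these libraries. Gene reads ranged from 17835117 to 20753653 per library. The groups differed in more than the Rest allele: LacZ reads (27, 51 and 43) occurred in WT libraries and in no Rest_het library, and Cre-ERT2 reads (10, 16 and 17) the other way round. The labels name neither sequence, and a difference that goes with the Rest allele and one that goes with these sequences cannot be told apart. The cDNA was primed with oligo dT, amplified for 12 cycles and read without strand.

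Cholesterol is built from acetyl-CoA through mevalonate, isoprenoids, squalene and a series of sterols. When sterols run low in the endoplasmic reticulum, SCAP carries SREBP proteins to the Golgi, where they are cut and released to switch on the genes of the pathway. INSIG proteins hold SCAP back when sterols are plentiful. The embryonic brain makes its own cholesterol, which growing membranes and hedgehog signalling need.

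SREBP proteins act at promoters together with the factors NF-Y and Sp1, so the promoters of the members were searched on both strands for 3 motifs, TCACNCCAC for SREBP, CCAAT for NF-Y and GGGCGG for Sp1, none of which contains another. The RefSeq table for GRCm38.p6 gave promoters from 250 bases before to 50 bases after the start for 6 of the 8 genes, and Sqle and Fdft1 had no entry. CCAAT occurred in 6 of these 6 genes, against 41.1% of all 27025 genes in the table, and GGGCGG also in 6 of 6, against 38.2%. The longer SREBP motif occurred in the Hmgcs1 promoter and in none of the other 5, against 1.44% of all genes. These shares are over all genes of the table, expressed here or not. Among 12 further sterol synthesis genes with a promoter there, CCAAT occurred in 10, GGGCGG in 11 and the SREBP motif in 0. For Dhcr7 the table lists 3 starts, and a gene counted when any of its promoters held the motif. Matches are a description of letters, and other forms of the SREBP site were not searched. The stretches shown carry some of these matches for the 3 genes where the stretch touches no annotated exon, with the matches in capitals and CCAAT read on the other strand as ATTGG and GGGCGG as CCGCCC. The first lies at chr13:119690165-119690274, the second at chr10:76531468-76531557 and the third at chr5:28071173-28071210, all on the plus strand and each written 5′ to 3′.
Hmgcs1: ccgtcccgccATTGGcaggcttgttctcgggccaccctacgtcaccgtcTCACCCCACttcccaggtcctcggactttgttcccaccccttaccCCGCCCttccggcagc
Lss: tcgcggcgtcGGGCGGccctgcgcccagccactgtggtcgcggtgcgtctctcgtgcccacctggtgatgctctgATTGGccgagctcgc
Insig1: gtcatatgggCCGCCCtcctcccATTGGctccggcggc
The left part of the REST motif, TTCAGCACC, was in 0 of the 6 promoters, against 0.433% of all genes in the table. The short right part, GGACAG, was in 3 of the 6, those of Hmgcs1, Cyp51 and Insig1, against 24.7%.

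The members had very different RNA levels. Levels are compared per length, as TPM (reads over the length of the merged exons, on a scale that sums alike in every library), with the SD over all 6 libraries. Lengths were not corrected for sequence shared with other genes, which is given below for Fdft1, Hmgcs1 and Idi1. Hmgcs1, which makes HMG-CoA at the entry of the pathway, led with 533 ± 40.6 TPM (SD, n = 6) and stood above 98.3% of tested genes. Insig1, the brake on SREBP transport, followed with 188 ± 39.0 TPM (SD, n = 6). Fdft1, the squalene synthase, reached 133 ± 6.89 TPM (SD, n = 6). Insig1 lay above Fdft1 in all 6 libraries. Sqle, the squalene epoxidase, and Cyp51, the sterol 14-demethylase, lay side by side at 79.4 ± 12.0 and 78.7 ± 5.35 TPM (SD, n = 6), and each was the higher one in 3 libraries. The low end held Dhcr7, the enzyme of the last step to cholesterol, at 13.5 ± 2.07 TPM (SD, n = 6), the isomerase gene Idi1 at 11.9 ± 1.36 TPM and the cyclase gene Lss at 11.4 ± 0.625 TPM. The ranges of these 3 genes overlapped, at about the middle of the tested genes. With the longest coding transcript as length, Idi1 (8.38 to 11.2 TPM) lay below Lss (16.9 to 19.7 TPM) and Dhcr7 (14.9 to 24 TPM) without overlap, so their order depends on the length used. By that length Sqle (86.6 to 138 TPM) also lay above Cyp51 (54.5 to 66.4 TPM) without overlap. The closeness of Sqle and Cyp51 thus holds only for merged exons.

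**Figure D1:**
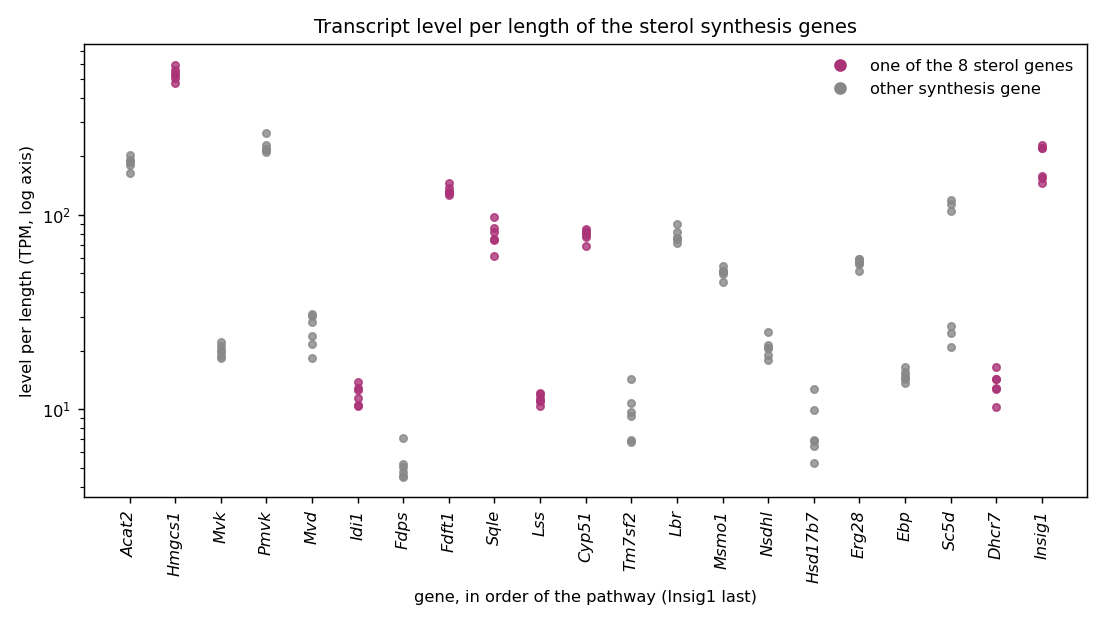
Level per length (TPM, log axis) of the 8 sterol genes and 13 other synthesis genes in pathway order, 1 point per library. Hmgcs1 leads the 8 genes at 477 to 593 TPM, Dhcr7, Idi1 and Lss lie at 10.3 to 16.5 TPM, and Sc5d falls at 2 separate levels.

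The question for the genotypes was whether loss of an exon of 1 Rest allele goes with a change in these genes. Rest itself, counted over all its exons, had 20.6 ± 0.777 CPM (reads scaled to a common library size by TMM) in WT and 18.1 ± 1.23 CPM in Rest_het (SD, n = 3; edgeR adjusted p = 0.49), which does not check the loss of exon 4. None of the 8 sterol genes was called by edgeR's quasi-likelihood test at a Benjamini-Hochberg adjusted p under 0.05, a threshold that 0.123% of tested genes passed. DESeq2 and limma-voom called none of the 8 either. At an unadjusted p under 0.05 there was 1 of 8, Sqle, on the higher side in Rest_het. Of all tested genes, 11.7% reached that level, 6.97% higher and 4.72% lower, so 1 of 8 is near the background. The median of the 8 log2 fold changes was 0.05, against 0.0054 over all tested genes, with 5 above and 3 below 0. Leaving out WT replicate 1 left 2 above 0, with a median of -0.02. Without Rest_het replicate 2 the median was -0.02 as well, with 3 above 0.

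Of the 8 genes, 2 had groups that did not overlap, Sqle and Fdft1. This is near the background, as 19.3% of tested genes showed the same. Sqle (chr15:59315077-59331192, plus strand), which puts the first oxygen on squalene, stood at 83.1, 105 and 104 CPM in WT and at 131, 118 and 108 CPM in Rest_het. All Rest_het libraries lay above all WT libraries, by a narrow gap, and WT replicate 1 was well below the others. Its fold was 1.22, with a 95% interval from 1.04 to 1.43 (edgeR adjusted p = 0.411, unadjusted 0.0395). This and all other 95% intervals of folds given here are approximate. They use a normal quantile and are too narrow for 3 libraries a group. The exact two-sided permutation p was 0.1, the smallest that 3 against 3 libraries allow. The unadjusted edgeR p was 0.103 without WT replicate 1, 0.133 without Rest_het replicate 1 and 0.0662 without Rest_het replicate 2. Fdft1 (chr14:63145150-63179578, minus strand), which joins farnesyl units to squalene just before, lay on the other side. Its WT libraries held 135, 156 and 143 CPM and its Rest_het libraries 133, 133 and 131 CPM, so the Rest_het libraries were tightly grouped just below the lowest WT library. Its fold was 0.913, with a 95% interval from 0.818 to 1.02 (edgeR adjusted p = 0.54), with an exact two-sided permutation p of 0.1. Fdft1 shares 18.3% of its exon bases with Ctsb, a lysosomal protease gene on the opposite strand. These libraries carry no strand, so reads in the shared part cannot be assigned. Ctsb itself, with 364 to 369 CPM in WT and 386 to 424 CPM in Rest_het, lay on the opposite side from Fdft1 (edgeR adjusted p = 0.436).

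For the other 5 enzymes among the 8 genes, the groups overlapped. Hmgcs1 (chr13:119690379-119708260, plus strand) had 623, 591 and 613 CPM in WT and 582, 677 and 519 CPM in Rest_het, and the WT values sat inside the wider Rest_het range. Its fold was 0.973, with a 95% interval from 0.844 to 1.12 (edgeR adjusted p = 0.907). Of the Hmgcs1 exon words of 60 bases, 10.8% also occur in transcripts of other genes. Idi1 (chr13:8885501-8892451, plus strand), which interconverts the isoprenoid building units, had 8.83, 12.3 and 10.9 CPM in WT and 9.66, 9.19 and 10.6 CPM in Rest_het. The Rest_het values fell within the WT range, and the fold of 0.921 had a 95% interval from 0.745 to 1.14. Idi1 rests on 166 to 233 reads per library, the fewest of the 8. Of its 60-base exon words, 24.6% also occur in transcripts of other genes, all 5 of them named as predicted genes, so part of its reads may be lost or shared.

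Lss (chr10:76531588-76557138, plus strand), which folds squalene epoxide into the first sterol, gave 29.2, 30.4 and 27.7 CPM in WT libraries and 31.6, 32 and 29.4 CPM in mutant ones. It was the steadiest member, with a coefficient of variation of 5.36% over the 6 libraries, and the groups overlapped (fold 1.07, 95% interval 0.948 to 1.2). Cyp51 (chr5:4081145-4104746, minus strand) gave 74.5, 88.1 and 87.8 CPM in WT and 88.4, 92.9 and 80.1 CPM in Rest_het. The groups overlapped, with WT replicate 1 the lowest (fold 1.04, 95% interval 0.911 to 1.2). Dhcr7 (chr7:143823145-143848410, plus strand) gave 14.6, 24.3 and 18.2 CPM in WT and 18.2, 20.8 and 19.6 CPM in Rest_het. Here WT held both the lowest and the highest library (fold 1.03, 95% interval 0.804 to 1.31). The adjusted p of Idi1, Lss, Cyp51 and Dhcr7 was 0.792, 0.691, 0.835 and 0.952 by edgeR.

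**Figure D2:**
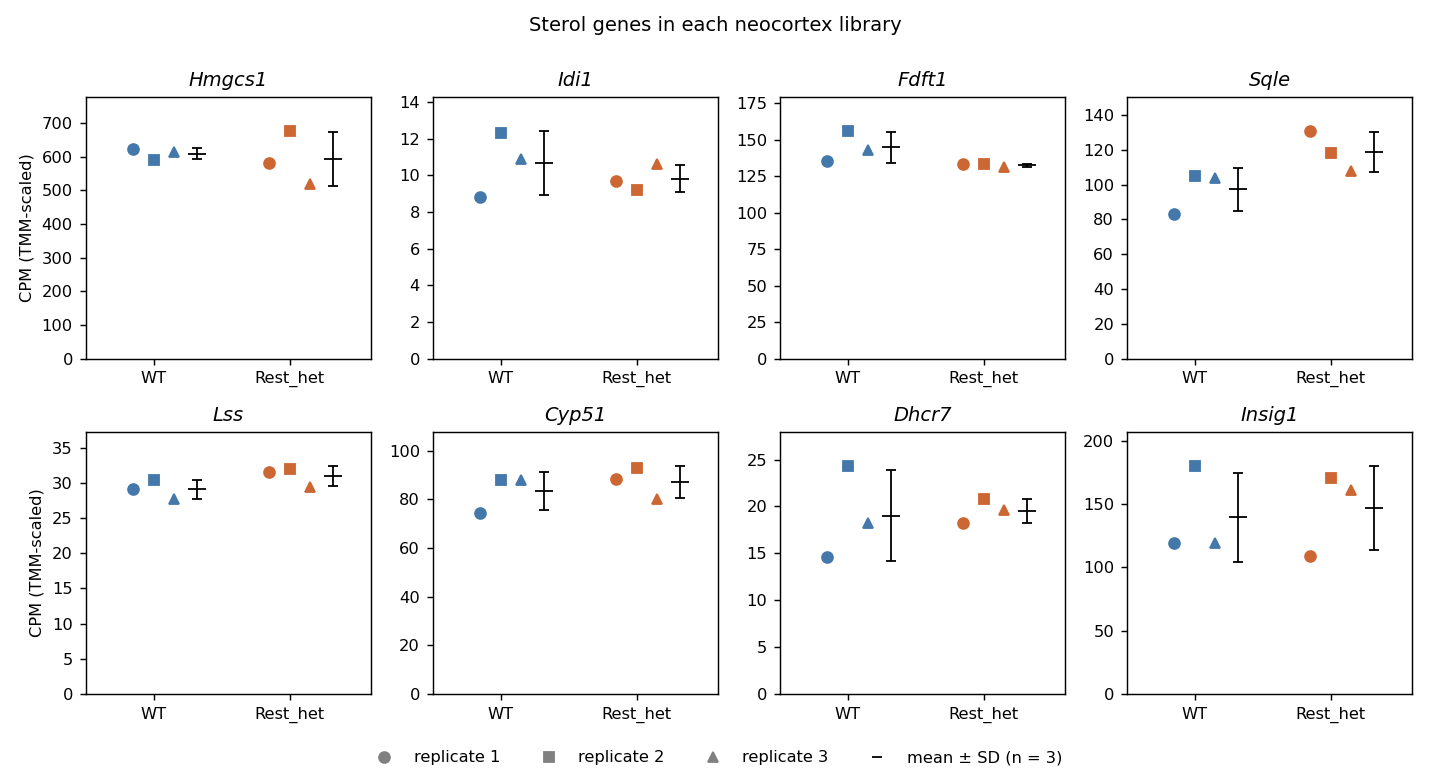
TMM-scaled CPM of the 8 sterol genes, with 1 marker per library (shape gives the replicate number) and mean ± SD (n = 3) in black, on axes that start at 0. Sqle lies at 83.1 to 105 CPM in WT and 108 to 131 CPM in Rest_het, and Insig1 lies at 109 to 119.5 or at 161 to 179.9 CPM in both groups.

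Insig1 varied most of the 8 genes, with a coefficient of variation of 21.5% over the 6 libraries. It had 119.5, 179.9 and 119 CPM in WT and 109, 170.5 and 161 CPM in Rest_het. The values fell near 2 levels, and each genotype held libraries at both. The fold between genotypes was 1.06, with a 95% interval from 0.793 to 1.4 (edgeR adjusted p = 0.91). Insig1 lies at chr5:28071363-28078662 in GRCm38, the build of all positions given here. Its neighbours were looked at after these values were seen, as were those of Sqle, Idi1 and Sc5d. Within 1.5 Mb on either side (by lower coordinate) lie 7 more tested genes, and 1 had the same 3 libraries on top: Rbm33, a gene of an RNA-binding protein 0.246 Mb away. Rbm33 had 77.4, 119 and 73.7 CPM in WT and 67.8, 134 and 123 CPM in Rest_het. The nearest tested gene on the other side, Paxip1, 0.331 Mb away, did not share the pattern, at 27.4 to 35.2 CPM in WT and 30.9 to 37.6 CPM in Rest_het. Idi1 also shared its 3 highest libraries with 1 of 7 tested neighbours, Gm26601, and Sqle with 0 of 17. What sets the levels of Insig1 apart was not tested.

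**Figure D3:**
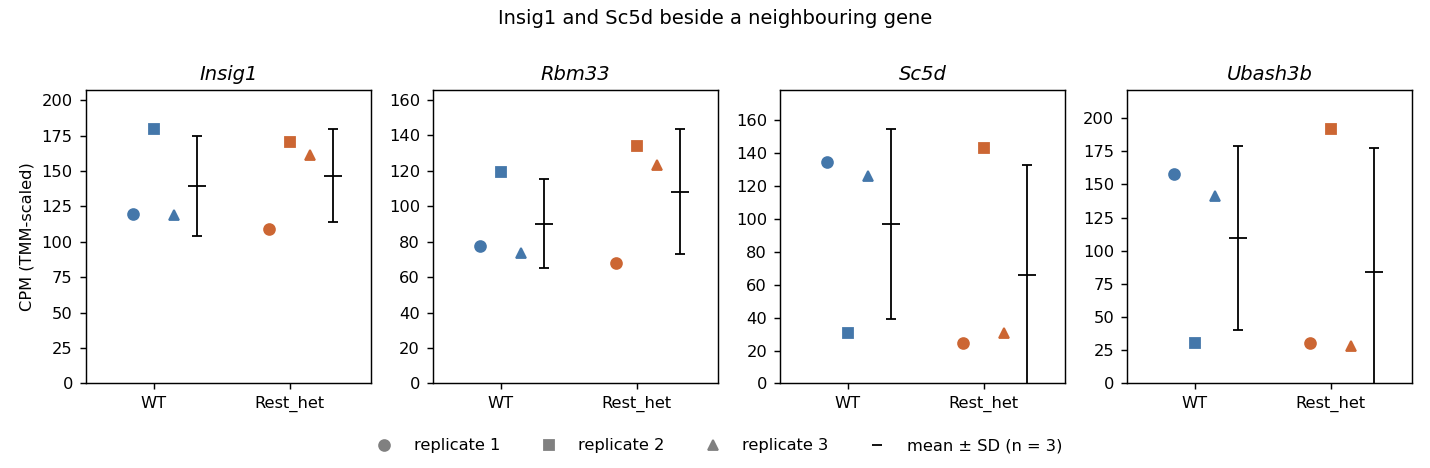
TMM-scaled CPM per library of Insig1 and its neighbour Rbm33, and of the sterol desaturase gene Sc5d and its neighbour Ubash3b, with mean ± SD (n = 3). In each pair the same 3 libraries are high: WT replicate 2 and Rest_het replicates 2 and 3 for Insig1, WT replicates 1 and 3 and Rest_het replicate 2 for Sc5d. Lower SD bars that would pass 0 end at the axis.

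The 8 genes did not move as a block across libraries. The mean over the 8 genes of log2(CPM + 0.5), centred per gene, was lowest in WT replicate 1 at -0.17 and highest in WT replicate 2 at 0.14. The Rest_het libraries lay between these at -0.02, 0.09 and -0.01. In WT replicate 1 lay the lowest value of 4 of the 8 genes, and WT replicate 2 the highest of 4. Sqle peaked in Rest_het replicate 1 instead, and Hmgcs1 in Rest_het replicate 2. Cyp51 came closest to the mean profile, with a root-mean-square difference of 0.07 on the log2 scale, and Insig1 was farthest, at 0.22. Outside the pathway lists, 7975 genes of at least 10 CPM and sufficient spread were compared with the mean profile over the 6 libraries. The nearest were Ift43 (0.0164), Elp5 (0.022), 1700037H04Rik (0.0245), Harbi1 (0.0245) and Slc25a14 (0.027), by the same difference. Genes of the pathway lists did not enter this ranking. Of the enzymes, Acat2, which makes acetoacetyl-CoA ahead of Hmgcs1, differed from the mean profile by 0.05 and Msmo1, which removes sterol methyl groups, by 0.07.

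**Figure D4:**
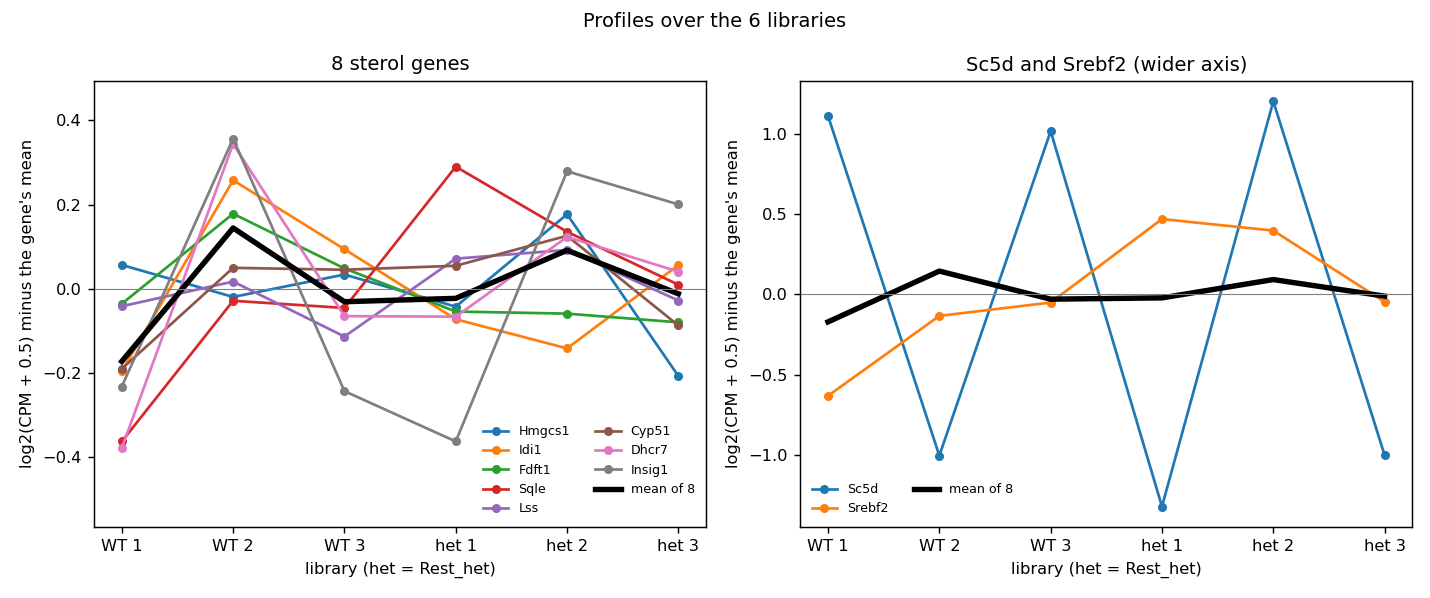
Centred log2(CPM + 0.5) in each library, for the 8 sterol genes with their mean in black (left) and for Sc5d and Srebf2 (right, wider axis), where lines only join values of 1 gene. The mean of the 8 genes runs from -0.17 in WT replicate 1 to 0.14 in WT replicate 2, and Sc5d changes by more than 2 log2 units between libraries.

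The other 15 genes of sterol synthesis were taken as a list. None was called by edgeR, DESeq2 or limma-voom after adjustment. By the unadjusted edgeR p, 5 of 15 lay under 0.05, on the higher side in Rest_het, among them Mvd, Tm7sf2 and Hsd17b7, where 6.97% of all tested genes were at that level on the higher side. Mvd, which makes the substrate of Idi1, had 10.8, 8.69 and 10 CPM in WT and 13.5, 14.3 and 12.4 CPM in Rest_het, with no overlap (edgeR adjusted p = 0.349). Tm7sf2 and Hsd17b7, a sterol reductase and a sterol ketone reductase, had folds of 1.49 and 1.56 (edgeR adjusted p = 0.366 and 0.382). Msmo1 lay at a fold of 1.03, with a 95% interval from 0.908 to 1.17. The median log2 fold change of the 15 genes was 0.04.

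Sc5d, the desaturase just ahead of Dhcr7, is named for its values, which were seen first. Its levels were 135, 30.7 and 126 CPM in WT and 24.5, 143 and 30.7 CPM in Rest_het, a 5.85-fold range with high and low libraries in both groups. Among 192 genes of at least 10 CPM with a comparable spread, the nearest profile was that of Ubash3b, 1.24 Mb from Sc5d on chromosome 9. Ubash3b had 158, 30.4 and 141 CPM in WT and 30.8, 192 and 28.5 CPM in Rest_het. Around Sc5d, 13 more tested genes lie within 1.5 Mb, and 4 had the same 3 libraries on top: Ubash3b, Sorl1, Arhgef12 and Nectin1. Their root-mean-square differences from Sc5d were 0.1814, 0.8321, 1.0393 and 0.5376 on the log2 scale. The share of all tested genes with these 3 libraries on top was not counted. Arhgef12 had a narrow range, 28.8 to 34.1 CPM.

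**Figure D5:**
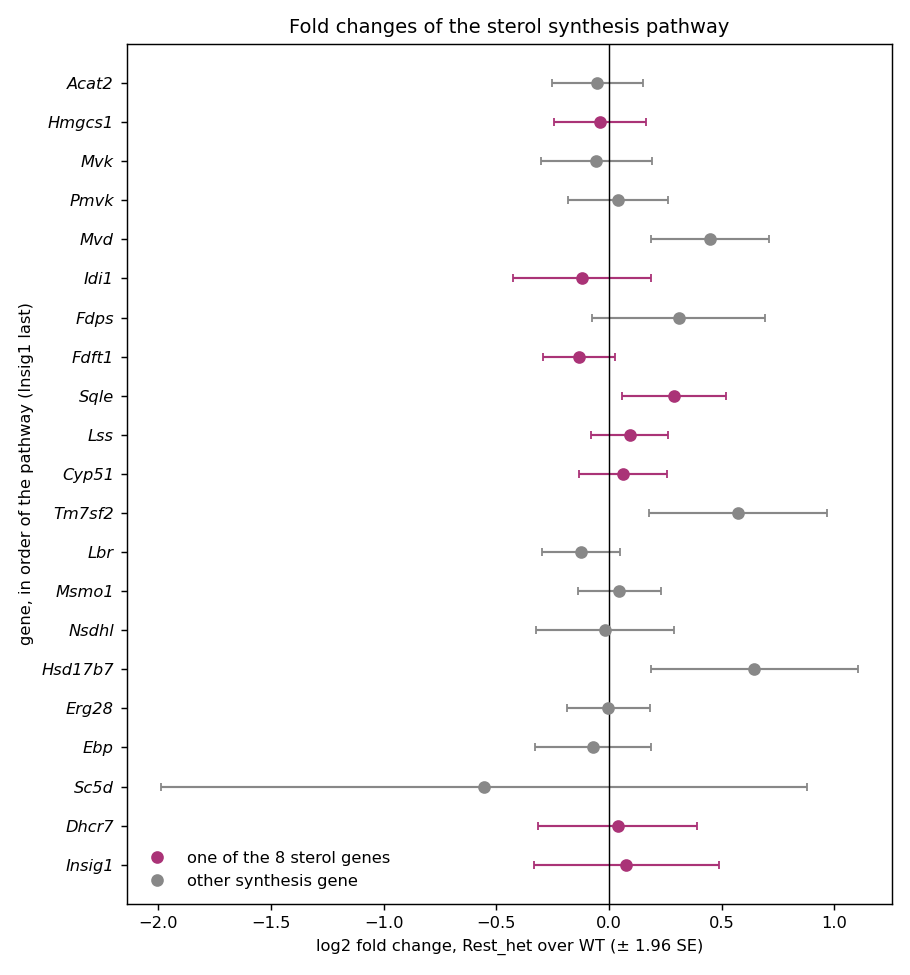
Log2 fold change of Rest_het over WT for the 8 sterol genes and 13 other synthesis genes, in pathway order with Insig1 last. Bars are approximate 95% intervals from a normal quantile, too narrow for 3 libraries a group. The 8 genes lie between -0.13 and 0.29, and Mvd, Tm7sf2 and Hsd17b7 lie between 0.45 and 0.64.

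Upstream of the enzymes, the SREBP machinery was mixed. Srebf2, the SREBP gene most tied to sterol synthesis, had 19.8, 28.2 and 29.9 CPM in WT and 43.1, 40.9 and 30 CPM in Rest_het. The groups did not overlap, but WT replicate 3 and Rest_het replicate 3 nearly met (fold 1.46, 95% interval 1.14 to 1.89, edgeR adjusted p = 0.36). Srebf1, more tied to fatty acids, had a fold of 0.932, with a 95% interval from 0.696 to 1.25. Scap, the escort of SREBP, had 4.58 to 7.51 CPM in WT and 6.58 to 8.96 CPM in Rest_het (edgeR adjusted p = 0.465). Insig2, the paralog of Insig1, had a fold of 1.03, with a 95% interval from 0.913 to 1.16. Rnf139 is a ubiquitin ligase of the reticulum and Ubxn4 a reticulum protein of protein degradation. Their folds were 0.769 and 0.863 (edgeR adjusted p = 0.366 and 0.4). These were the 2 genes of the 10 in this list at an unadjusted edgeR p under 0.05 on the lower side. Srebf2 was the 1 on the higher side. Of all tested genes, 4.72% reached that level on the lower side and 6.97% on the higher side.

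Of the lists around the pathway, uptake and transport had 0 of 11 tested genes at an unadjusted edgeR p under 0.05, a level that 11.7% of all tested genes reached. Fatty acid synthesis had 2 of 10, the desaturase genes Fads1 and Fads2, with folds of 1.3 and 1.33 (edgeR adjusted p = 0.419 and 0.42). Fasn and Scd2 had folds of 1.06 and 0.957, and the groups overlapped for each. The efflux and oxysterol list had 2 of 10, both higher in Rest_het. Apoe, the lipid carrier, had 35.6, 28.5 and 42.1 CPM in WT and 67.6, 55.8 and 65.9 CPM in Rest_het, a wide gap. Its fold was 1.78, with a 95% interval from 1.46 to 2.18 (edgeR adjusted p = 0.173, DESeq2 adjusted p = 0.000253). Lpcat3, which remodels phospholipids, had a fold of 1.33 (edgeR adjusted p = 0.373). Abca1, the cholesterol exporter, had a fold of 0.737 with a 95% interval from 0.463 to 1.18. The isoprenoid branches had 1 of 12, the prenyl protease gene Rce1, with a fold of 1.46 (edgeR adjusted p = 0.36).

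Over all 71 genes of these 6 lists, 68 were tested, 0 were called by edgeR (DESeq2 called 1, Apoe) and 13 were at an unadjusted edgeR p under 0.05, 11 higher and 2 lower, beside 11.7% of all tested genes, 6.97% higher and 4.72% lower. The 13 became 6 without WT replicate 1, 5 without Rest_het replicate 1 and 4 without Rest_het replicate 2. The share of read pairs in no annotated gene was 26.9, 22.8 and 24.8% in WT and 21.8, 21.4 and 25.5% in Rest_het. It was highest in WT replicate 1, the library with the lowest mean over the 8 sterol genes, and its part in these values was not tested.

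The libraries held the defining genes of neocortex, with 0 of 12 at 0 reads. These 12 genes summed to 2073 to 2389 CPM in WT and 1906 to 2028 CPM in Rest_het, without overlap. The 8 neuron markers summed to 4184 to 4664 CPM in WT and 3691 to 3873 CPM in Rest_het, also without overlap. Of them 0 were called by edgeR, beside 0.123% of all tested genes. At an unadjusted edgeR p under 0.05, 3 of the 8 were lower in Rest_het and 0 higher. Of all tested genes, 4.72% were lower and 6.97% higher at that level. The groups did not overlap for 4 of the 8, beside 19.3% of all tested genes. The 10 radial glia markers summed to 1498 to 1751 CPM in WT and 1479 to 1576 CPM in Rest_het. In bulk tissue, fewer cells of a type and less RNA per cell cannot be told apart. Markers of other cells varied by library: choroid plexus from 2.95 to 58.1 CPM in WT and 8.02 to 375 CPM in Rest_het, with Folr1 and Kcne2 at 0 reads in some libraries, and meninges from 163 to 439 and 167 to 470.4 CPM. The endothelial and mural list without Rgs5 summed to 76.8 to 146 CPM in WT and 99 to 146 CPM in Rest_het. Rgs5, a pericyte marker, had 1430.1 and 1159 CPM in Rest_het replicates 1 and 2 against 152 to 216 CPM elsewhere. Of the 7 oligodendrocyte lineage markers, with Sox10 at 0 in some libraries, the sum was 25.2 to 39.5 CPM in WT and 36.5 to 40.1 CPM in Rest_het. Microglia markers came to 39.1 to 52.4 and 42.5 to 54.4 CPM, erythroid ones to 516 to 654 and 316 to 645 CPM. Ventral telencephalon markers came to 183 to 334 and 229 to 509 CPM. Thalamus and hypothalamus markers came to 123 to 221 and 118 to 224 CPM, with Gbx2, Sim1 and Otp at 0 in some libraries. No marker of any list was called by edgeR. The part of these cells in the sterol values was not tested.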

How the data were processed

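Genes carried read counts from the STAR 2.5.2a aligner and build GRCm38.p4, which the submitters' processing notes name; the authors deposited 1 count file per library. Of its columns the unstranded one was taken, because the forward strand held 49.9 to 50.1% of gene reads. Outside all genes, and left out, were 1.21 to 1.45% unmapped, 6.29 to 7.48% multimapping, 21.4 to 26.9% unassigned and 2.54 to 2.85% ambiguous read pairs. Without molecular identifiers, PCR copies count as reads. The deposited normalized signal (DESeq2 is named in the submitters' notes) equalled counts over 1 factor per library, within a relative tolerance of 1e-06, and served as an alternative.

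The 8 genes and all lists were chosen with earlier results of these data known. Named besides them are genes fixed by list, Rest, every list gene at an unadjusted p under 0.05, and the 5 genes nearest to the mean sterol profile. Other genes named were chosen after their values were seen. They are Acat2, Sc5d, Rgs5, Fnta, Nr1h2, the genes nearest to single sterol genes, and neighbours or overlapping genes. Some list genes that this rule names count in their lists but are not reported here. Symbols matched 48349 of 48709 gene IDs, and positions and exons came from GENCODE M21. edgeR 4.0.16 in R 4.3.3 compared genotypes with its quasi-likelihood test, TMM scaling, genotype as the single term and filterByExpr (count minimum 10, total 15). Called means a Benjamini-Hochberg adjusted p under 0.05 over all tested genes. The fit was tested on simulated data. Alternatives were other scalings, DESeq2 1.42.0, limma 3.58.1 (voom, and log2 of the deposited values plus 1), other filters, a looser threshold, a replicate block and each library left out. The longest coding transcript as gene length was added after the data were seen.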

Additional observations from a re-analysis of the deposited data

Results flagged for a closer look

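Reads outside the gene counts differed between the groups: 43 Cre-ERT2 reads occurred in the 3 Rest_het libraries and 0 in WT, and 121 LacZ reads in the 3 WT libraries and 0 in Rest_het. They touch every comparison of the genotypes given above, and their part in the sterol values was not tested. No group had more than 3 libraries, so single outlying libraries were not examined by rule.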

How the results depend on the processing

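No sterol gene was called under any of the 16 alternatives run, and Sqle, Idi1, Fdft1 and Lss kept their direction in the 15 that gave a fold. The count of called genes was 19, and it became 127 with DESeq2, 107 without the low-count filter, 6 with the replicate block and 12 to 35 with 1 library left out. The number of sterol genes at an unadjusted p under 0.05 was 0 with the replicate block and 0 to 1 with 1 library left out. The 13 other pathway genes at that level became 8 with the replicate block and 4 to 16 with 1 library left out. Of them Apoe was called with DESeq2 and without the low-count filter. Log2 fold changes turned with total-read scaling for Hmgcs1 (0.0249) and Scd2 (0.0017), a scaling that moved the median of all tested genes to 0.0725. With 1 library left out, they reached -0.1425 to 0.0520 for Hmgcs1, -0.0143 to 0.1244 for Cyp51, -0.1225 to 0.2547 for Dhcr7, -0.0398 to 0.3042 for Insig1, -0.0238 to 0.0982 for Msmo1, -0.2294 to 0.0769 for Srebf1, -0.0109 to 0.0790 for Insig2, -0.0672 to 0.1808 for Fasn, -0.1262 to 0.0089 for Scd2 and -0.6889 to 0.0675 for Abca1. The cause was not tested. With the longest coding transcript as length, Sqle stood at 112 TPM, Fdft1 at 107, Cyp51 at 62.0, Dhcr7 at 19.6, Lss at 18.4 and Idi1 at 9.67. The mean of Sqle thus passed that of Fdft1. Sqle lay above Cyp51, and Idi1 below Lss, without overlap. Same-numbered libraries did not all deviate together (correlations of 0.0115, 0.0366 and -0.1438), and unlike-numbered pairs ran from -0.1746 to 0.1699. With 3 libraries a group, these values cannot show whether a number marks a shared litter or preparation. Pairing is unknown, and the main fit treated the libraries as unpaired. With 3 libraries a group, the fold intervals limit what could be seen, most of all for Insig1, Dhcr7 and Idi1.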

Other observations

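Genes whose profiles were nearest to single sterol genes were looked at after the values were seen, over the 6 libraries and among genes of at least 10 CPM. For Sc5d, 2 of the 10 nearest lay on its own chromosome 9, Ubash3b and Igdcc4, where 4.69% of the 192 eligible genes lie. Igdcc4 was the least alike of the 10 (root-mean-square difference 0.7444) and lies 22.8 Mb away. More of the 10 lay on chromosome 8: Zdhhc2, Purg, Mau2, Lpl and Mfhas1. The share of the 192 eligible genes on chromosome 8 was not counted. For Insig1, 1 of the 10 nearest, Rbm33, lay on its own chromosome 5, which holds 7.14% of its 3737 eligible genes. Sinhcaf, Etfbkmt and Sox5, also among these 10, lay on chromosome 6, whose share of the eligible genes was not counted either. Of the 10 nearest, Idi1 had 2 on its own chromosome and Sqle 1. Hmgcs1, Fdft1, Lss, Cyp51 and Dhcr7 had 0 each.

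Among genes of the lists, Fnta, a subunit of protein prenyltransferases, had 132 CPM in WT replicate 1 and 36.3 to 39.8 CPM in the other 5 libraries. Nr1h2, an oxysterol receptor gene, had 14.1 CPM in WT replicate 1 and 32.1 to 37.4 CPM in the other 5.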
